A study of Mus musculus with 45 samples.

Results

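Goblet cells are the mucus-secreting cells of the gut lining, and 10 genes of their mucus programme (Muc2, Tff3, Fcgbp, Clca1, Zg16, Spink4, Muc13, Agr2, Creb3l1 and Galnt12) were followed across stage, gut region, Lgr5 genotype, Rspondin ligand and Rspondin dose. They were chosen by name, and all 10 of 10 were found among the 52636 genes of the table of sorted cells and among the 52636 genes of the table of organoids. Lgr5 is a receptor for the Wnt-enhancing Rspondin (Rspo) ligands and marks intestinal stem cells, and the study compared the transcriptomes of mouse intestinal cells with and without it. Bulk RNA sequencing gave 15 libraries of cells sorted for Lgr5-driven fluorescence and 30 libraries of organoids, which are small epithelial structures grown in a gel from intestinal cells.

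The embryonic and adult sorted cells came from the Lgr5-DTReGFP knock-in line, in which the reporter allele is itself a null allele of Lgr5, so that heterozygous (HE) animals carried 1 working copy and homozygous (KO) animals none. At E16.5, eGFP+ve cells of whole small intestine were pooled from 7 and 8 HE embryos and from 2 and 6 KO embryos, and the labels give each HE pool a KO pool of the same litter. At E18.5, 2 single HE embryos were used, and in the adult the duodenum and the ileum of 2 HE mice of 2 months were each sorted, so that the 4 adult libraries came from 2 animals. A second set held eGFP+ve/RFP+ve cells of the ileum of Lgr5-Cre mice of 2 months, collected 48 h after 2 mg of tamoxifen, with 2 libraries labelled HE (Lgr5-Cre/+) and 3 labelled cKO (Lgr5-Cre/flox). All the mice of that set received tamoxifen and carried the Cre allele, and the reporter, the tamoxifen and the gate all set it apart from the DTReGFP adults. The organoids were grown from single E17.5 Lgr5-DTReGFP embryos, 3 WT cultures (numbers 10, 5 and 30) and 2 KO cultures (numbers 7 and 2), and at passage 4 each culture received Rspo1, Rspo2 or Rspo3 at 100 or 5 ng/ml.

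Intestinal mucus is built on MUC2, a gel-forming mucin that is folded and linked in the endoplasmic reticulum, decorated with O-linked sugars in the Golgi and released from granules. Goblet cells arise from crypt progenitors in which Notch signalling is low and the transcription factor ATOH1 is active, and SPDEF drives their maturation. Rspondins hold crypt cells in the proliferating state by keeping Wnt receptors on the cell surface, while goblet and absorptive cells form as Wnt signalling falls along the crypt axis. Paneth cells are secretory too but differ in this, since the study describes their differentiation as induced by a high Wnt tone.

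Among the secreted products, Muc2 encodes the gel mucin, Tff3 a trefoil peptide of mucosal repair, Fcgbp a large mucus protein rich in von Willebrand factor D domains, Clca1 a protease of the mucus layer that cleaves MUC2, Zg16 a lectin-like protein that binds the wall of Gram-positive bacteria, and Spink4 a Kazal-type inhibitor of serine proteases. Muc13 encodes a mucin that spans the membrane and is made by absorptive cells as well. The remaining members act inside the cell: Agr2 is a disulphide isomerase of the endoplasmic reticulum needed for MUC2 production, Creb3l1 a transcription factor held in the membrane of the endoplasmic reticulum until it is cleaved, and Galnt12 an enzyme that adds the first sugar of O-linked chains.

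On mouse genome build GRCm38 the secreted products lie at chr7:141690340-141754693 on the plus strand (Muc2), chr17:31125306-31129646 on the minus strand (Tff3), chr7:28071236-28120862 on the plus strand (Fcgbp), chr3:145003817-145032776 on the minus strand (Clca1), chr7:127050156-127087328 on the minus strand (Zg16) and chr4:40920052-40931395 on the plus strand (Spink4). The others lie at chr16:33794037-33819934 on the plus strand (Muc13), chr12:35992907-36004087 on the plus strand (Agr2), chr2:91982328-92024502 on the minus strand (Creb3l1) and chr4:47091909-47123070 on the plus strand (Galnt12). Reads were counted per gene, and the strand setting of the counting is not given in the sources used here. By gene span, Muc13 overlaps the antisense gene Gm15657, Zg16 overlaps Gm44939 and Gm22747 on the opposite strand and Galnt12 holds the pseudogene Gm12424 on its own strand. Overlap of their exons was not examined, so it is not known whether any of their reads are affected by these neighbours. Fcgbp has a near-identical neighbour, 9530053A07Rik, and the division of reads between them is uncertain.

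The bases just upstream of a RefSeq start are given for 4 members, the only ones held by the promoter set used here. They are RefSeq sequences of GRCm38.p6, 5′ to 3′ on the plus strand. Tff3, Clca1, Zg16, Spink4, Creb3l1 and Galnt12 had no entry in that set and are named only. Capitals mark matches to 4 short motifs on either strand. These are the TATA box, spelled TATAAA, an E-box, the kind of site bound by bHLH factors, spelled CAGCTG, a motif of the CDX homeodomain factors, spelled TTTATG, and one of the KLF zinc finger factors, spelled CACCC.
Muc2, chr7:141690090-141690339: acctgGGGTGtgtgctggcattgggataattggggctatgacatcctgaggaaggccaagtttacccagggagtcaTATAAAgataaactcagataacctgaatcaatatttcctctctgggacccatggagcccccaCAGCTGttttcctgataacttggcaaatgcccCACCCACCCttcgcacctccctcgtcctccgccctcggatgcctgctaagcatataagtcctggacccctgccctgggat
Fcgbp, chr7:28070986-28071235: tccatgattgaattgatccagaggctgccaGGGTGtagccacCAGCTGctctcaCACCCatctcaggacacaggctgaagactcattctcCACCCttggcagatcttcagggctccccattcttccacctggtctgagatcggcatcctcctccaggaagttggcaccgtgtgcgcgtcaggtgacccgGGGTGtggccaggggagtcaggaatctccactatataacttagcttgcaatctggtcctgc
Agr2, chr12:35992675-35992924: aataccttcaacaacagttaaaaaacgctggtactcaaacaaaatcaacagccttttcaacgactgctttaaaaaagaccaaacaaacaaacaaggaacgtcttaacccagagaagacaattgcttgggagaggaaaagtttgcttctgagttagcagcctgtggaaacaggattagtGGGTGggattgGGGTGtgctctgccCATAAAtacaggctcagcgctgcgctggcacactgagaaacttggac
Muc13, chr16:33793787-33794036: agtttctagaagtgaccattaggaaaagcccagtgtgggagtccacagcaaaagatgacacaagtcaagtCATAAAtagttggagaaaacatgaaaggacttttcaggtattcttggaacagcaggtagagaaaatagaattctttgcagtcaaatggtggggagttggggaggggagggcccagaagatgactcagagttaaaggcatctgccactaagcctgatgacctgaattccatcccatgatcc

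The Muc2 window held a TATAAA 174 to 169 bases before the start, and 12.4% of 32851 mouse promoter windows of this length hold one. The name TATA box stands here for these letters alone, whatever their position. Both Muc2 and Fcgbp held a CAGCTG, present in 13.0% of windows. TTTATG stood in the Agr2 and Muc13 windows and in 10.8% of all windows. CACCC, found in 52.0% of windows, occurred 4 times for Fcgbp, 3 times for Muc2 and 2 times for Agr2. ACGTG, the core of unfolded protein response elements, and TGTTTA, a FOXA motif, stood in none of these windows; of all 32851 windows, 5444 held the first and 3952 the second. These matches describe letters in these windows and no binding was measured.

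Values are CPM, the reads of a gene scaled to the total of its library, and sequencing depth, read from the smallest step of the CPM values, was 1275727 to 9980034 reads per sorted library and 18127800 to 33105739 per organoid library, so 1 read is worth most in the E16.5 pools. Lgr5 itself was 104.3 and 125.1 CPM in the E16.5 HE pools and 64.8 and 51.7 CPM in the KO pools, and was 52.8 and 87.6 CPM in the Cre libraries labelled HE against 89.2, 109.4 and 90.7 CPM in those labelled cKO. The study reports a truncated Lgr5 transcript in KO embryos, so Lgr5 reads in KO samples do not measure a working receptor. The cKO allele removes part of the gene, so reads over the whole gene do not check that deletion, and the supplementary dataset of the study gives the opposite genotype to 2 of these 5 libraries, whose values it matches over all 859 genes it lists. Mesenchyme markers summed to 842.1 to 1809 CPM in the E16.5 HE pools, 182.6 to 510.4 CPM in the KO pools, 81.4 to 84.0 CPM at E18.5 and 2.25 to 4.70 CPM in the DTReGFP adults. Paneth cell markers summed to 83.9 to 92.6 CPM in the E16.5 HE pools, 141.0 to 267.1 CPM in the KO pools, 145.8 to 152.4 CPM at E18.5, and 11420 to 28810 CPM in the DTReGFP adults, so transcripts of differentiated cells were present in the sorted fractions. In bulk samples like these, fewer goblet cells and less RNA per goblet cell cannot be told apart.

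Across the sorted libraries, Muc2, Zg16, Spink4 and Muc13 were lower in every embryonic library than in any adult library. Muc2 was between 16.7 and 65.2 CPM in the 4 pools of E16.5, 43.4 and 74.3 CPM at E18.5, between 782.2 and 5718 CPM in the 4 DTReGFP adult libraries and between 3133 and 6176 CPM in the 5 Cre libraries. Zg16 went from 0 to 4.75 CPM in the embryo to 21.8 to 33.2 CPM in the DTReGFP adults and 252.1 to 720.4 CPM in the Cre ileum, with no overlap between these ranges. Muc13 had the smallest ratio of highest to lowest value over all 15 libraries, with 473.3 to 792.85 CPM in the embryo and 899.3 to 1450 CPM in the adult. Levels in the Cre set and in the DTReGFP adults were not tested against each other, since line, tamoxifen and gate differ together. Per kilobase of exon, the scale on which genes can be compared, Spink4 was the most abundant member in 8 of the 15 sorted libraries, Tff3 in 5 and Muc13 in 2.

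**Figure D1:**
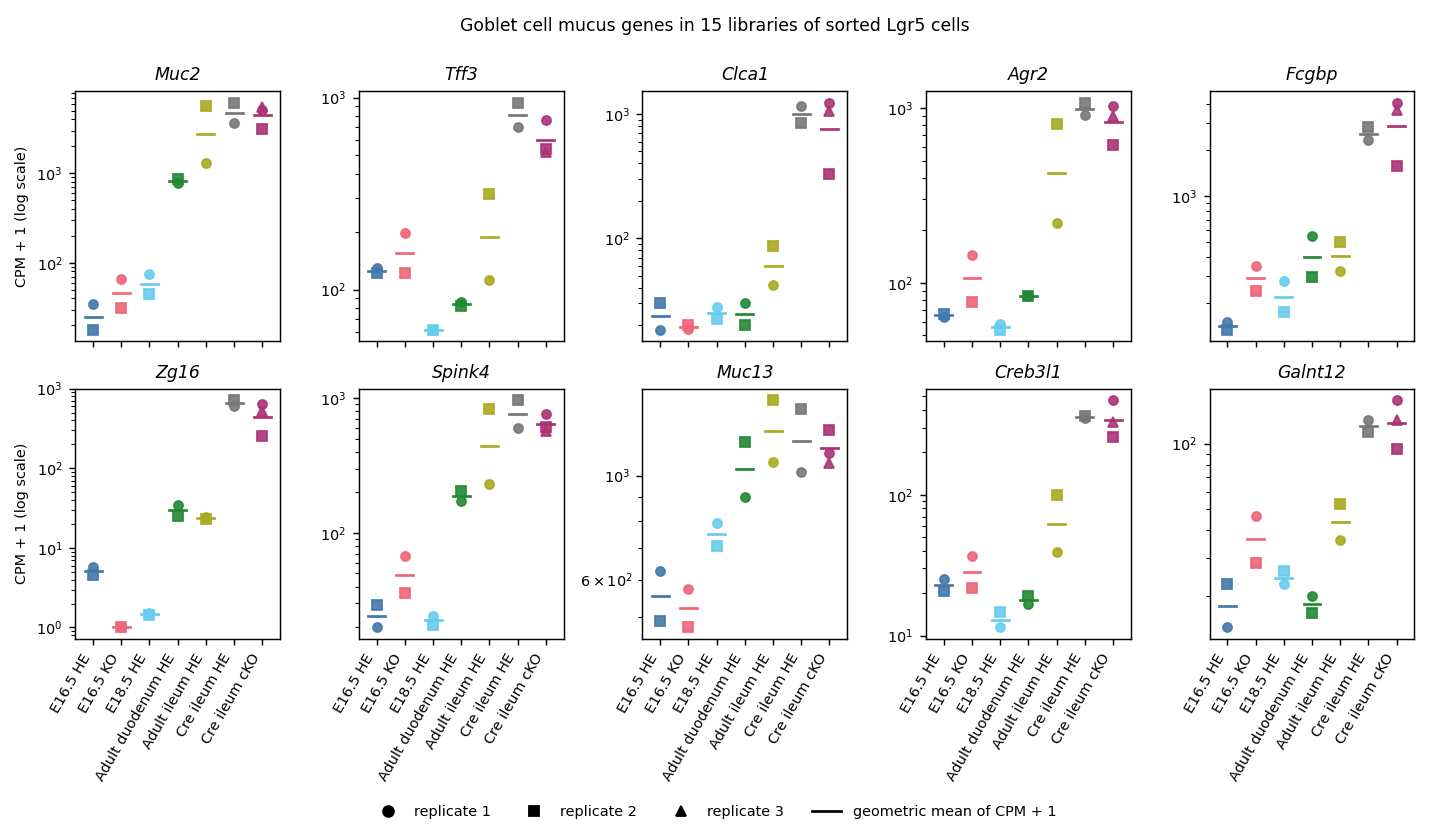
CPM + 1 (log axis) of each of the 10 genes in the 15 libraries of sorted cells, by group; each point is 1 library. Muc2 lies between 16.7 and 74.3 CPM in the embryo and above 782 CPM in all adult libraries. Muc13 lies between 473.3 and 792.85 CPM in the embryo and between 899.3 and 1450 CPM in the adult.

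The first question was whether loss of Lgr5 altered mucus genes in the embryonic Lgr5 cells. Of the 10 genes, 1 passed the threshold used for sorted cells (limma on log2(CPM + 1), Benjamini-Hochberg adjusted p under 0.1 and a fold change over 1.5) at E16.5, and it was higher in the KO; 0.527% of the 17276 genes tested were called, and 0.0868% were called higher. The gene was Fcgbp, which was 149.7 and 131.7 CPM in HE and 347.0 and 239.4 CPM in KO, with both KO pools above both HE pools. Its log2 fold change was 1.03 ± 0.18 (SE, n = 2 pools against 2, adjusted p = 0.0701 from limma), and edgeR's quasi-likelihood test on the recovered reads gave 0.99 with an adjusted p of 0.028. Spink4 was 18.9 and 28.3 CPM in HE and 65.9 and 35.0 CPM in KO pools, a log2 difference of 1.03 with an adjusted p of 0.206 from limma, and Galnt12, at 13.4 and 21.7 against 45.6 and 27.4 CPM, differed by 1.01 with an adjusted p of 0.216 from limma. Muc2 (log2 difference 0.88, limma adjusted p = 0.348) and Agr2 (0.70, 0.264) were also at their highest in KO pool 1, which held 2 embryos. For Muc2 the HE and KO values overlapped, at 33.8 and 16.7 CPM in HE and 65.2 and 30.2 CPM in KO pools. Tff3 (0.30, limma adjusted p = 0.543), Creb3l1 (0.30, 0.682), Clca1 (−0.28, 0.709) and Muc13 (−0.09, 0.848) lay nearer to 0.

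Zg16 had reads in the HE pools alone, 6 and 7, and 0 reads in both KO pools. Against a floor of 3 reads per library it was at least 3.48-fold lower in the KO, from a mean of 4.15 CPM in HE, and with an adjusted p of 0.102 from limma it missed the threshold. A block on litter pairs each KO pool with its HE pool, and 6 of the 10 genes were then called, Fcgbp (adjusted p = 7.48e-09 from limma), Spink4 (0.00145), Agr2 (0.00529), Galnt12 (0.0102) and Muc2 (0.0134) higher in the KO and Zg16 (0.00482) lower, against 4.8% of all genes. The deviations of same-litter pools from their group means correlated at -0.03 over genes. With a single HE and KO pair per litter, the blocked fit draws the spread of each gene largely from other genes. Its adjusted p-values are therefore not strong evidence. Leaving out any of the 4 pools left 0 of all genes called by limma (574 to 2807 at an unadjusted p under 0.05), so these fits say nothing of single genes. The KO pools also differed from the HE pools in markers of other cells: red blood cell markers summed to 788.5 and 855.9 CPM in HE and 239.8 and 357.0 CPM in KO pools, and 5 enterocyte markers were called lower. The part of these cells in the differences was not tested. In lists of the same biology limma called 0 genes at E16.5, with 5 of 15 secretory fate genes (transcription factors and Notch pathway genes), 6 of 23 other goblet cell genes, 0 of 6 other mucins, 1 of 19 O-glycosylation enzymes and 6 of 27 genes of folding and secretion at an unadjusted p under 0.05, beside 2354 of the 17276 genes tested. The median log2 difference was 0.55 for the secretory fate genes and 0.72 for the other goblet cell genes, against 0.08 over all genes tested.

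Between E16.5 and E18.5 the mucus genes of HE cells moved in both directions. Of the 10 genes, 5 were called, 2 higher and 3 lower at E18.5, against 49.6% of the 18408 genes tested, 30.3% higher and 19.4% lower, so a call was about as common among them as among all genes. Muc2 rose from 33.8 and 16.7 CPM to 74.3 and 43.4 CPM, a log2 fold change of 1.22 ± 0.38 (SE, n = 2 against 2, adjusted p = 0.0366 from limma). Fcgbp rose by 0.64 ± 0.21 on the log2 scale (adjusted p = 0.0479 from limma), from 149.7 and 131.7 to 275.2 and 174.4 CPM, and was not called once TMM factors, which moved the median of all genes from 0.23 to 0.13, rescaled the CPM (0.52). Tff3, the trefoil peptide, went the other way, from 127.8 and 121.1 CPM to 60.9 and 60.5 CPM. Its log2 fold change was −1.02 ± 0.11 (adjusted p = 0.00113 from limma), and the groups lay far apart relative to the spread within each. Creb3l1 fell by 0.82 ± 0.24 on the log2 scale (adjusted p = 0.0338 from limma), from 24.3 and 19.7 to 10.4 and 13.8 CPM. Zg16 fell from 13 reads in the HE pools of E16.5 to 4 reads at E18.5 (adjusted p = 0.00662 from limma), a depth-corrected ratio of 8.88 with a 95% counting interval of 2.74 to 37.4. Muc13 reached an adjusted p of 0.0436 with limma, with a fold change of 1.35 that is under the limit of 1.5.

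Each stage was represented by 2 libraries, and without E18.5 embryo 1 or embryo 2 limma called 0 of all genes (5078 and 5118 at an unadjusted p under 0.05), so these fits say nothing of single genes. Pools of embryos were set against single embryos, which cannot be told apart from stage, and mesenchyme markers moved with stage as given above. Red blood cell markers went from 788.5 and 855.9 CPM to 19.2 and 30.8 CPM and stem cell markers from 1449 to 1475 CPM at E16.5 to 4558 to 4957 CPM at E18.5, and the part of these cells was not tested. In the related lists 3 of 7 other mucins rose, led by Muc6 (log2 fold change 4.84), a gel mucin of gastric and Brunner's glands. Of 21 other goblet cell genes 3 rose, led by the trefoil gene Tff2 (4.08), and 8 fell, led by Bcas1 (−1.88). Of 27 genes of folding and secretion 6 rose and 11 fell, while of 13 secretory fate genes 4 rose, led by Foxa3 (1.87), and 2 fell, led by the enteroendocrine factor Neurog3 (−1.65).

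The step from the E18.5 embryo to the adult brought 5 of the 10 mucus genes up and none down. All 10 had a positive log2 fold change, and the called share compares with 19.0% of all 19554 genes tested and 9.36% called higher. Muc2 was 74.3 and 43.4 CPM at E18.5, 782.2 and 865.5 CPM in the duodenum and 1293 and 5718 CPM in the ileum, without overlap between stages. Its log2 fold change was 4.69 ± 0.75 (SE, n = 2 against 4, adjusted p = 0.00611 from limma), or 25.9-fold. Spink4 rose from 23.3 and 19.8 CPM to 170.4 and 204.5 CPM in the duodenum and 231.6 and 831.4 CPM in the ileum, which was 12.8-fold (log2 3.68 ± 0.57, adjusted p = 0.00573 from limma). Zg16 rose from 4 reads over both embryos to 485 reads over the 4 adult libraries, a depth-corrected ratio of 58.2 with a 95% counting interval of 22.6 to 214.5 (adjusted p = 5.42e-05 from limma). The adult Zg16 values were close together, 33.2 and 24.5 CPM in the duodenum and 23.2 and 21.8 CPM in the ileum. Fcgbp (log2 fold change 0.87 ± 0.29, adjusted p = 0.0872) and the membrane mucin Muc13 (0.60 ± 0.18, adjusted p = 0.0666) rose by smaller amounts in the same limma fit.

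The genes acting inside the cell did not pass with the 4 adult libraries as separate samples: Agr2 had a log2 difference of 1.75 (limma adjusted p = 0.206), Creb3l1 one of 1.36 (0.206) and Galnt12 one of 0.22 (0.775). Tff3 (1.02, limma adjusted p = 0.21) and Clca1 (0.61, 0.454) also did not. The ileum of mouse 2 held the highest value of Muc2, Tff3, Clca1, Agr2, Spink4, Muc13, Creb3l1 and Galnt12 among the 4 adult DTReGFP libraries. Without that library Muc2 (4.05), Spink4 (3.17) and Zg16 (4.23) remained called, without E18.5 embryo 1 Muc2 and Zg16, and without E18.5 embryo 2 Zg16 alone. These non-calls depend on how the regions are treated, since the regions of one animal are not separate replicates. With the mean of each mouse 9 genes were called, against 26.2% of all genes, and Galnt12 alone was not (0.37, limma adjusted p = 0.134), and with the ileum alone as the adult 10 were called, against 23.4%. The duodenum alone as the adult gave 5 calls, with no share of all genes set beside them. There Galnt12 averaged 17.43 CPM against 23.35 CPM at E18.5, and Clca1 24.0 against 24.25 CPM. The positive differences of these genes with all 4 adult libraries therefore came from the ileum. Paneth cell markers rose with the mucus genes, 7 of 7 called higher, and immune markers summed to 1494 to 3145 CPM in the adult against 11.3 to 18.4 CPM at E18.5. The immune list includes the lysozyme gene Lyz2, whose share of this sum was not separated. The sum was lowest in the ileum of mouse 1 and highest in that of mouse 2. So was the Paneth marker Lyz1, at 5456 and 13187 CPM. The part of these cells was not tested. Other goblet cell genes rose in 16 of 28 and fell in 2, led by Retnlb, a resistin-like goblet cell protein (log2 fold change 7.18), and by Tff2 (−4.01). Of 15 secretory fate genes 6 rose, led by the Notch ligand gene Dll4 (2.06), while the folding and secretion machinery had 2 of 27 genes higher and 1 lower.

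**Figure D2:**
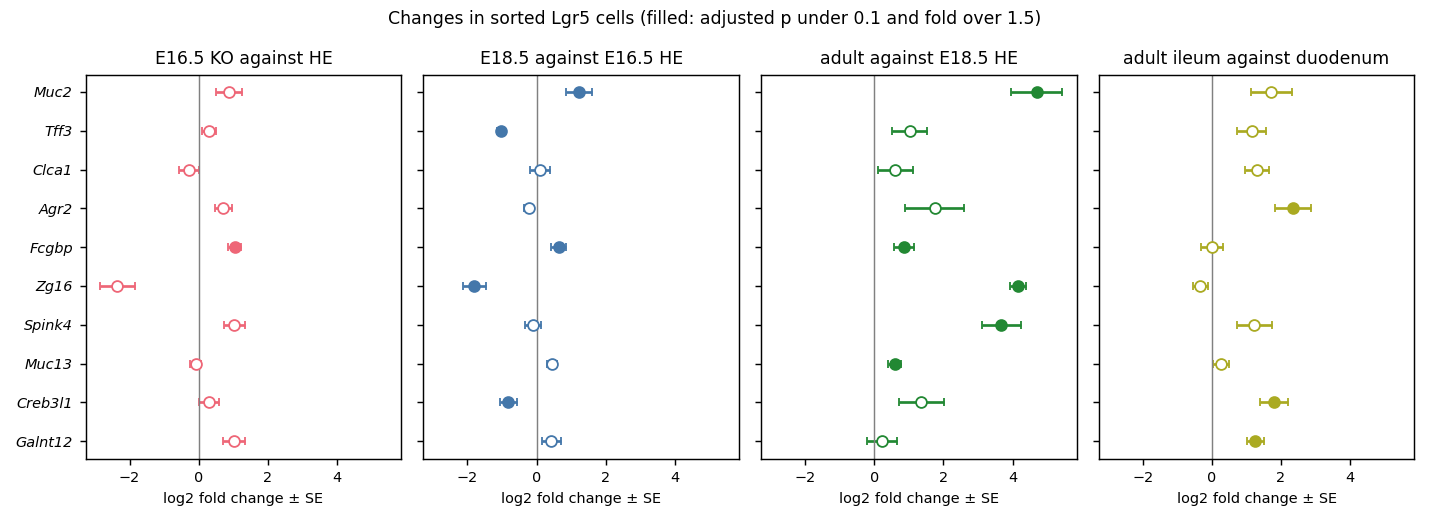
Log2 fold change (x axis) with its SE for the 10 genes (rows) in the comparisons of sorted cells; filled points passed adjusted p under 0.1 and fold over 1.5. All 10 genes lie to the right of 0 for adult against E18.5, with Muc2 at 4.69, Zg16 at 4.16 and Spink4 at 3.68, and Tff3 lies at −1.02 for E18.5 against E16.5.

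Within the adult, the ileum was set against the duodenum of the same 2 mice. Of the 10 genes 3 were called, all higher in the ileum, against 6.88% of the 18608 genes tested and 2.24% called higher, and these were the genes acting inside the cell. Agr2 was 82.8 and 82.9 CPM in the duodenum and 219.2 and 814.2 CPM in the ileum, with a log2 fold change of 2.34 ± 0.52 (SE, n = 2 against 2, adjusted p = 0.0553 from limma). Creb3l1 was 15.7 and 18.2 CPM in the duodenum and 38.0 and 99.2 CPM in the ileum (1.80 ± 0.40, adjusted p = 0.0566 from limma), and Galnt12 was 19.1 and 15.8 against 35.3 and 51.8 CPM (1.25 ± 0.24, adjusted p = 0.0328 from limma). Among those not called, Clca1 differed by 1.30 (limma adjusted p = 0.104), Muc2 by 1.72 (0.199), Spink4 by 1.23 (0.294) and Tff3 by 1.16 (0.221), each with its highest value in the ileum of mouse 2. Fcgbp (0.01, limma adjusted p = 0.996), Zg16 (−0.33, 0.533) and Muc13 (0.27, 0.652) were near 0.

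With the mouse as a block, 7 of the 10 were called higher in the ileum, against 11.1% of all genes: Muc2 (adjusted p = 0.0234 from limma), Tff3 (0.0467), Clca1 (0.0403) and Spink4 (0.0382) beside Agr2, Creb3l1 and Galnt12. With a single pair of libraries per mouse, this fit also draws the spread of each gene largely from other genes. Its adjusted p-values are not strong evidence either. Without the ileum of mouse 2, Agr2 alone was called (1.39, adjusted p = 0.0939 from limma), while without either duodenum library limma called 0 of all genes (2132 and 1469 at an unadjusted p under 0.05), so those fits say nothing of single genes. Tuft cell markers summed to 2358 to 3994 CPM in the duodenum and 288.4 to 541.5 CPM in the ileum. Paneth cell markers summed to 28810 CPM in the ileum of mouse 2, 11420 CPM in that of mouse 1, and 16990 and 17700 CPM in the duodenum. Enteroendocrine markers summed to 164.8 CPM in the ileum of mouse 2, 50.2 CPM in that of mouse 1, and 89.3 and 54.45 CPM in the duodenum. The part of these cells was not tested. The regional difference extended to Atoh1, the factor that sets secretory fate (1.96), and to 7 of 27 other goblet cell genes that rose, led by Guca2a (2.35), with Agr3 falling by 2.32 on the log2 scale. Of 27 folding and secretion genes 6 rose and 0 fell, led by the disulphide isomerase Pdia5 (1.90).

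In the Lgr5-Cre ileum, 0 of the 10 genes differed between the libraries labelled cKO and HE (limma), against 0.0504% of the 19848 genes tested, and 0 of the 10 had an unadjusted p under 0.05. Muc2 was 3656 and 6176 CPM in the libraries labelled HE and 5074, 3133 and 5575 CPM in those labelled cKO, and Fcgbp 2330 and 2807 against 4079, 1576 and 3635 CPM. Each of the 10 genes overlapped between the labelled groups, with log2 differences of −0.59 to 0.16. Under the genotypes of the study's supplementary dataset limma called 779 genes (3.92%), and 0 of the 10 were among them. At an unadjusted p under 0.05 were 4 of the 10 (Clca1, Fcgbp, Galnt12 and Muc13), beside 4246 of the 19848 genes, and the lowest adjusted p was 0.105, for Clca1. Because the genotypes of 2 libraries are in doubt, no direction is drawn from this comparison.

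In the organoids the mucus genes were compared first by Rspondin dose. At 5 against 100 ng/ml Muc2, Fcgbp, Clca1, Zg16 and Muc13 were mostly higher at the low dose and Spink4 was near balance. The direction of Creb3l1, Galnt12 and Agr2 differed by ligand. On Rspo2 Creb3l1 and Agr2 were higher at 5 ng/ml in 3 of 3 WT and 2 of 2 KO cultures, and Galnt12 in 2 of 3 and 2 of 2. On Rspo3 all of these were lower at 5 ng/ml in every culture, as were Creb3l1 and Galnt12 on Rspo1. Agr2 on Rspo1 was higher in 1 of 3 WT and 2 of 2 KO cultures. Over the 15 pairs of culture and ligand, Fcgbp and Muc13 were higher at 5 ng/ml in 15, Muc2, Clca1 and Zg16 in 14, Tff3 in 11, Agr2 in 8, Spink4 in 7, Creb3l1 in 5 and Galnt12 in 4. The median log2 difference over these pairs was 1.98 for Zg16, 1.22 for Clca1, 0.99 for Muc2, 0.83 for Fcgbp and 0.63 for Muc13, and −0.88 for Creb3l1 and −0.39 for Galnt12. The medians of Creb3l1 and Galnt12 mix opposite directions by ligand. Each culture contributes 3 of these pairs, which are therefore not independent. Per kilobase of exon Tff3 was the most abundant member in 28 of the 30 organoid libraries and Fcgbp in 2.

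**Figure D3:**
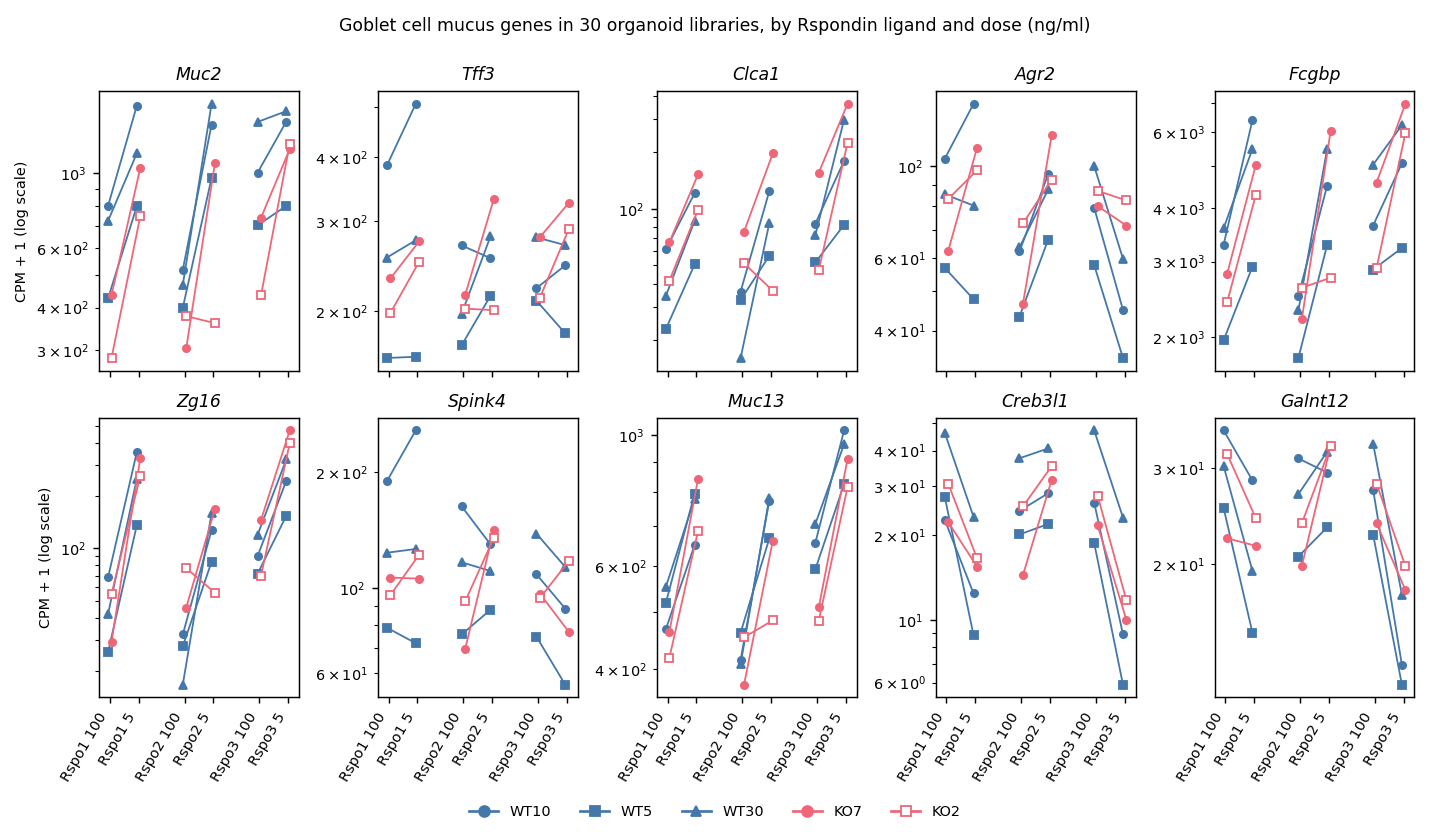
CPM + 1 (log axis) of each of the 10 genes in the 30 organoid libraries, by Rspondin ligand and dose in ng/ml; each point is 1 library, lines join the doses of a culture and colours separate WT from KO cultures. Zg16 lies between 15.7 and 118.5 CPM at 100 ng/ml in WT cultures and between 82.8 and 354.4 CPM at 5 ng/ml.

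In WT cultures on Rspo1, 4 of the 10 genes were called (limma, adjusted p under 0.05, the threshold for organoids), 2 higher and 2 lower at 5 ng/ml, against 53.4% of the 19130 genes tested, 12.5% higher and 40.9% lower. Zg16 was 67.4, 24.5 and 41.2 CPM at 100 ng/ml and 354.4, 134.9 and 249.9 CPM at 5 ng/ml in cultures 10, 5 and 30, without overlap, a log2 fold change of 2.45 ± 0.44 (SE, n = 3 against 3, adjusted p = 9.36e-05 from limma). Muc13 rose by 0.53 ± 0.13 on the log2 scale (adjusted p = 0.00158 from limma). Creb3l1 fell by 1.16 ± 0.43 (adjusted p = 0.0261 from limma), from 21.7, 26.4 and 45.3 to 11.5, 7.85 and 22.3 CPM, and Galnt12 fell by 0.56 ± 0.21 (adjusted p = 0.0301 from limma). These falls were lost under TMM scaling, with an adjusted p of 0.13 from limma for Creb3l1 (−0.84) and 0.35 for Galnt12 (−0.23), and the calls were then 5 higher and 0 lower, with Muc2, Clca1 and Fcgbp beside Zg16 and Muc13. Muc2 was 800.7, 425.3 and 722.5 CPM at 100 ng/ml and 1586, 798.7 and 1146 CPM at 5 ng/ml, and with the culture as a block it was called (log2 0.85, adjusted p = 0.00324 from limma, 0.0532 without the block). The block brought the calls to 7 of 10, 5 higher and 2 lower, with Clca1 and Fcgbp added, against 64.1% of all genes. Without culture 5, 2 genes were called. For the counts without a culture, here and below, the share of all genes called is not given. Such counts do not separate lost power from a change in these genes.

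On Rspo2, 5 of the 10 genes were called in WT cultures, all higher at the low dose, against 33.4% of all genes called and 9.12% called higher. Muc2 was 517.5, 398.8 and 466.5 CPM at 100 ng/ml and 1393, 967.5 and 1606 CPM at 5 ng/ml (cultures 10, 5 and 30), with a log2 fold change of 1.49 ± 0.36 (SE, n = 3 against 3, adjusted p = 0.00382 from limma). Zg16 (log2 fold change 2.28, adjusted p = 0.000668), Clca1 (1.65 ± 0.57, 0.0295), Fcgbp (0.99 ± 0.33, 0.027) and Muc13 (0.79, 0.000121) rose in the same limma fit. Without culture 30, 1 gene was called on this ligand, and without culture 10, 3. Fcgbp was the most abundant member by CPM, from 1788 to 2497 CPM at 100 ng/ml to 3276 to 5479 CPM at 5 ng/ml. Creb3l1 was 23.5, 19.2 and 36.6 CPM at 100 and 27.3, 20.95 and 39.8 CPM at 5 ng/ml, without the low values that Rspo1 and Rspo3 gave. On Rspo3 5 genes were called, 2 higher and 3 lower, against 51.4% of all genes, 13.7% higher and 37.8% lower. Zg16 (1.32, adjusted p = 0.0158) and Muc13 (0.52, 0.00172) rose, while Creb3l1 (−1.42 ± 0.43, 0.00814), Galnt12 (−0.96 ± 0.21, 0.000652) and Agr2 (−0.77 ± 0.31, 0.04) fell, all from limma. Under TMM scaling the falls of Creb3l1 (−1.18, adjusted p = 0.032 from limma) and Galnt12 (−0.72, 0.005) kept their calls and that of Agr2 did not. Without culture 10, 2 genes were called on Rspo3, and without culture 30, 3.

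**Figure D4:**
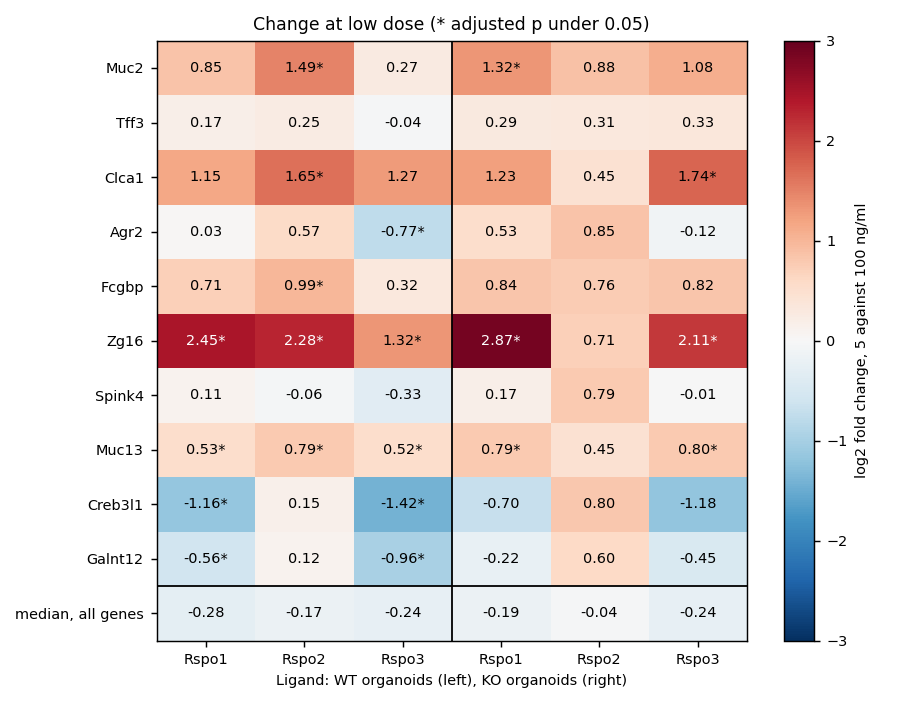
Log2 fold change at 5 against 100 ng/ml (colour) for the 10 genes (rows) by genotype and ligand (columns), with a star where the adjusted p was under 0.05. Zg16 and Muc13 carry a star in 5 of the 6 columns, and the column of KO cultures on Rspo2 carries none.

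In KO cultures on Rspo1 3 of the 10 genes were called, all higher at 5 ng/ml, against 29.8% of all genes and 7.86% called higher. Muc2 rose from 434.9 and 282.8 CPM to 1036 and 745.4 CPM in cultures 7 and 2 (1.32 ± 0.45, SE, n = 2 against 2, adjusted p = 0.0291 from limma), Zg16 from 28.2 and 53.8 to 327.6 and 259.5 CPM (2.87 ± 0.54, 0.000604) and Muc13 by 0.79 ± 0.16 (0.00087). With the culture as a block 6 were called, 5 higher and 1 lower, Clca1 (adjusted p = 0.0298 from limma) and Fcgbp (0.00869) joining the higher genes and Creb3l1 (0.0119) falling, against 43.8% of all genes. On Rspo3 3 genes were called, again all higher, against 44.5% of all genes and 11.8% called higher. These were Clca1 (1.74 ± 0.69, adjusted p = 0.0466), Zg16 (2.11, 0.00308) and Muc13 (0.80, 0.000292), from limma. The block on culture brought 7 calls, 5 higher with Muc2 and Fcgbp added and 2 lower (Creb3l1 and Galnt12), against 55.1% of all genes, and TMM scaling gave 5 higher and 0 lower. Leaving out culture 7 gave 0 calls for Rspo1, and leaving out culture 2 gave 2 for Rspo1 and 1 for Rspo3.

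On Rspo2 the KO cultures gave 0 calls of 10 (limma), against 0.115% of all genes, with 3 of the 10 at an unadjusted p under 0.05. The 2 cultures went different ways for Muc2, Tff3, Clca1 and Zg16. In culture 7 Muc2 was 302.6 CPM at 100 ng/ml and 1075 CPM at 5 ng/ml and Zg16 was 45.0 and 168.3 CPM. In culture 2 Muc2 was 376.5 and 359.0 CPM and Zg16 76.2 and 54.8 CPM, so these genes did not exceed their high-dose level. Lgr5 moved with this: it was 104.5 CPM at the high and 20.6 CPM at the low dose in culture 7, and 75.0 and 90.5 CPM in culture 2. Stem cell markers summed to 3734 and 1813 CPM in culture 7 and to 3281 and 3715 CPM in culture 2, and the part of this library in the result was not tested. Agr2, Fcgbp, Spink4, Muc13, Creb3l1 and Galnt12 were higher at the low dose in both cultures. In culture 2 the log2 difference was 0.08 for Fcgbp and 0.10 for Muc13. Creb3l1 was 13.5 and 30.5 CPM at the high and low dose in culture 7 and 24.4 and 34.3 CPM in culture 2.

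The change with dose was also compared between the genotypes, by an interaction term, for each ligand. Calls were made for 0 of the 10 genes in their dose response for Rspo1 (limma, 0.0% of all genes, 0 genes of the 10 at an unadjusted p under 0.05), Rspo2 (0.439%, 1 of the 10) or Rspo3 (0.0%, 0 of the 10). The 1 gene for Rspo2 was Zg16, whose log2 dose difference was −1.57 ± 0.70 (SE) in KO minus WT cultures with an adjusted p of 0.35 from limma. Set side by side at one ligand and dose, KO and WT cultures gave 0 calls of 10 in each of 6 limma comparisons. The share of all genes called was 0.214% for Rspo1, 1.2% for Rspo2 and 0.868% for Rspo3 at 100 ng/ml, and 0.125%, 4.54% and 0.193% at 5 ng/ml. At an unadjusted p under 0.05 were 0 genes of the 10 on Rspo1 at either dose, 1 on Rspo2 at 100 ng/ml (Zg16, log2 difference 1.28, adjusted p = 0.275), 2 on Rspo2 at 5 ng/ml (Muc2, −1.06, 0.128, and Muc13, −0.39, 0.116), 1 on Rspo3 at 100 ng/ml (Muc13, −0.39, 0.275) and 1 on Rspo3 at 5 ng/ml (Agr2, 0.77, 0.878), all adjusted by limma with Benjamini-Hochberg. With 2 KO cultures these intervals are wide: the SE of the Muc2 difference on Rspo2 at 5 ng/ml was 0.41. Without KO culture 7, Muc2 (−1.85) and Muc13 (−0.61) were called lower in the KO on Rspo2 at 5 ng/ml, where culture 2 stood alone.

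The 3 ligands were compared at each dose, at equal mass and not at equal molarity, with a limma F test. In WT cultures at 100 ng/ml Zg16 (adjusted p = 0.0241) and Muc13 (0.0137) differed by ligand, 2 of the 10 against 8.08% of all genes. Zg16 was 89.3, 70.5 and 118.5 CPM on Rspo3, above all values on Rspo1 (67.4, 24.5 and 41.2 CPM) and Rspo2 (31.3, 26.6 and 15.7 CPM). Muc13 was likewise highest on Rspo3, at 591.0 to 705.9 CPM against 467.2 to 551.8 CPM on Rspo1 and 407.3 to 461.0 CPM on Rspo2. With the culture as a block Muc2, Fcgbp and Clca1 were added, 5 of the 10 against 24.5% of all genes, and Muc2 was 1003, 700.4 and 1419 CPM on Rspo3 against 398.8 to 517.5 CPM on Rspo2. At 5 ng/ml Agr2 (adjusted p = 0.0346 from limma), Creb3l1 (0.0192) and Galnt12 (0.00228) differed, 3 of the 10 against 43.0% of all genes, and with the block 7 against 57.9%. Galnt12 was 11.1 to 16.6 CPM on Rspo3 and 22.4 to 31.1 CPM on Rspo2, and Creb3l1 was 4.90 to 22.2 CPM on Rspo3 and 20.95 to 39.8 CPM on Rspo2. In KO cultures at 100 ng/ml 0 of the 10 were called (limma, 0.00523% of all genes, 0 at an unadjusted p under 0.05). At 5 ng/ml Zg16 (adjusted p = 0.00657 from limma), Muc13 (0.00913), Creb3l1 (0.042) and Galnt12 (0.0444) differed, 4 of the 10 against 41.7%. The Rspo2 pair included culture 2, which kept its level of Lgr5 reads. Without culture 10 or culture 30 the test at 100 ng/ml in WT gave 0 calls, and at 5 ng/ml without culture 10 it gave 1, while in KO it gave 0 without culture 2 and 2 without culture 7.

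Other genes of mucus cells accompanied the dose response in part. Under low Rspo1 in WT cultures, 1 of 15 secretory fate genes rose, Xbp1, which drives the secretory machinery (log2 fold change 0.61), and 9 fell, led by Sox9 (−2.05), a factor of progenitors and Paneth cells. The same list had 2 higher and 7 lower on Rspo2, and 1 higher and 10 lower on Rspo3, with Sox9 leading the falls on each. Of 28 other goblet cell genes, 3 rose and 4 fell on Rspo1, led by Scin (1.43) and by Ern2 (−1.02), a stress sensor of the endoplasmic reticulum, and TMM scaling turned this into 7 higher and 2 lower. Of 27 folding and secretion genes 8 rose and 3 fell on Rspo1, led by Sec24d (1.39) and Pdia5 (−0.80), and TMM scaling gave 19 higher and 1 lower, so the balance of that list depends on the scaling. Of 20 O-glycosylation enzymes 3 rose, led by Gcnt4 (2.01), and 4 fell, led by Fut2 (−1.66). Under the CPM scaling the median of all genes was itself −0.28, −0.17 and −0.24 on the log2 scale for Rspo1, Rspo2 and Rspo3 in WT cultures, and −0.19, −0.04 and −0.24 in KO cultures, against −0.05 to 0.04 with TMM factors. The split of all genes on Rspo1 in WT cultures was 2394 higher and 7830 lower with CPM and 4500 higher and 4175 lower with TMM factors. It went from 1745 and 4650 to 3355 and 2371 on Rspo2 and from 2616 and 7223 to 4222 and 4911 on Rspo3, and in KO cultures from 1504 and 4190 to 2716 and 2377 on Rspo1 and from 2248 and 6259 to 3773 and 4179 on Rspo3. Markers of other cells moved with dose as well: in WT cultures 8 of 8 stem cell markers were called lower at 5 ng/ml on each ligand, Paneth markers were called lower in 7, 7 and 6 of 7 and enterocyte markers higher in 7, 5 and 7 of 10 on Rspo1, Rspo2 and Rspo3, and their part in the mucus genes' values was not tested.

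The 10 genes were also described by their likeness to one another. Over the 15 sorted libraries the median Pearson r between pairs of members was 0.88, from 0.54 for Muc13 and Tff3 to 0.98 for Tff3 and Creb3l1, and these libraries share groups that differ widely in level. Over the 30 organoid libraries, which share cultures, the median was 0.40, from −0.50 for Muc13 and Galnt12 to 0.89 for Fcgbp and Zg16. The genes whose pattern was most like the mean of the members in sorted cells were Spdef (0.988), Ttc39a (0.985), Lgi4 (0.984), Lrrc26 (0.984) and H13 (0.982) of 10912 ranked, and in organoids Hepacam2 (0.89), Capn9 (0.87), Atp2a3 (0.86), Mptx2 (0.85) and the Fcgbp neighbour 9530053A07Rik (0.85) of 10625 ranked. For 9530053A07Rik, likeness cannot be told apart from reads that may be shared with Fcgbp, which was not examined.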

How the data were processed

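RNA-seq of 15 libraries of sorted mouse intestinal cells and 30 organoid libraries was analysed from 2 tables of CPM per gene, deposited by the authors. The submitters' processing notes name Trimmomatic 0.36, STAR 2.5.3a, HTSeq 0.9.1 and GRCm38.p4 (mm10); the strand setting of the counting is not given in the sources used here. Per the labels, sorted cells were prepared with the Ovation SoLo kit and organoids with an NEBNext kit after rRNA depletion, and each table was tested on its own. The CPM values are rounded to steps of 0.05, and edgeR 4.0.16 was also run on the whole reads recovered for the E16.5 pools. Low values of the other sorted libraries were whole reads within the rounding too, and edgeR was not run on these.

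Samples were grouped by the labels. Genes at 1 CPM or more in the smaller group's number of libraries were tested with limma 3.58.1 (R 4.3.3) on log2(CPM + 1), so a fold change understates that of low genes. Sorted comparisons were fitted on their own groups and called at a Benjamini-Hochberg adjusted p under 0.1 and a fold over 1.5, and organoids in 1 fit of 30 libraries at an adjusted p under 0.05; 24 comparisons were made. Scripts were tested on simulated data. Alternatives were TMM factors, pseudocount 0.1, no filter, another call rule, another fit, a replicate block and each library left out. The 10 members and the gene lists were chosen with earlier results of these data known. All 10 genes are named in every comparison, from each list the largest called rise and fall, and the 5 genes most correlated with the members' mean. Deviations from group means of same-numbered samples correlated at -0.03 for the E16.5 pools (paired by litter in the labels), 0.26 for duodenum and ileum (paired by mouse) and 0.35 to 0.77 for organoids (paired by culture). Intervals and floors of 3 reads cover counting error only.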

Additional observations from a re-analysis of the deposited data

Results flagged for a closer look

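In the 4 adult Lgr5-DTReGFP libraries, the ileum of mouse 2 stood far above the others for 3 of the 10 genes, by the gap to the nearest library relative to the whole range. Muc2 was 5717.9 CPM there (gap ratio 0.897), Tff3 312.25 CPM (0.872) and Spink4 831.4 CPM (0.907). The 4 libraries mix 2 regions of 2 mice, and 10 gene groups were examined. The gaps were taken on CPM and not on the log scale of the tests. A chance rate of about 1 group in 20 would need 4 independent libraries of a single kind, which these are not. The 3 genes also share the same library, so no chance rate is given for them.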

How the results depend on the processing

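Of 111 counts of called genes under settings other than leaving out a library, 85 stayed within 1.5 times the reported count, 51 of them at 0, while 14 were larger and 12 smaller, and no gene called in the report changed direction. The count of 1 at E16.5 became 2 in a fit of all 15 sorted libraries and with TMM factors, 0 at an adjusted p under 0.05 with no fold limit, without the filter on low values and with a pseudocount of 0.1, and 6 with the replicate block on litter. The 5 calls between E16.5 and E18.5 became 3 without the filter. The 5 calls from E18.5 to adult became 8 in the fit of all libraries, 3 at the stricter p, 3 without the filter, 10 with the ileum alone and 9 with the mean per mouse, and the 3 calls of ileum against duodenum became 5, 1 and 0 under the first 3 of these and 7 with the replicate block on mouse. With the duodenum alone the calls from E18.5 to adult stayed at 5. For dose, the 4 calls of Rspo1 in WT became 2 without the filter and 7 with the replicate block on culture, the 5 of Rspo2 in WT 3 without the filter, the 3 of Rspo1 in KO 6 with the block, and the 3 of Rspo3 in KO 5 with TMM factors and 7 with the block. For the ligand test, 4 in KO at 5 ng/ml became 2 with TMM factors and 2 without the filter, 2 in WT at 100 ng/ml became 5 with the block and 3 in WT at 5 ng/ml became 7. Without the filter more genes share the adjustment. Between E16.5 and E18.5, E18.5 and adult, and the Cre groups, samples share only a number, and the replicate block gave 5, 4 and 0 calls.

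Leaving out 1 library in turn gave 0 to 0 calls at E16.5, 0 to 4 between E16.5 and E18.5, 1 to 5 for the adult, 0 to 7 for ileum against duodenum, 2 to 3, 1 to 5 and 2 to 5 for Rspo1, Rspo2 and Rspo3 dose in WT, 0 to 2, 0 to 0 and 1 to 3 in KO, 0 to 2 for the ligand in WT at 100 ng/ml, 1 to 2 at 5 ng/ml, 0 to 2 in KO at 5 ng/ml, and 0 to 2 for KO against WT on Rspo2 at 5 ng/ml; all other comparisons stayed at 0. The 0 counts at E16.5, between E16.5 and E18.5 and for ileum against duodenum came from fits in which limma called 0 of all genes (574 to 5118 at an unadjusted p under 0.05), so they say nothing on stability. Where this left 1 library in a group, that library was assumed to vary like the others. With 2 or 3 libraries a group and as few as 1275727 reads, small differences in low genes such as Zg16 were not detectable in the embryo.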
